A study of Mus musculus with 39 samples.

Results

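The 34 genes described here encode proteins of leukocytes, and above all of macrophages, and were followed in libraries made from sorted pancreatic tumour cells. They were chosen by name, 10 as pan-leukocyte genes and 24 as macrophage and myeloid genes, and all 34 were found among the 39017 genes of the deposited table (Adgre1 under the older symbol Emr1, by its gene identifier). Mouse pancreatic tumour cell clones, whose titles begin with yfp, were grown under the skin of C57BL/6 mice that received no treatment. Tumour cells were sorted from tumours taken at the end of the third week, and total RNA was sequenced. The 39 libraries came from 20 clones: 18 libraries of 9 clones labelled T cell low, 14 of 6 clones labelled T cell high, 4 of 2 intermediate clones and 3 of 3 clones with no class. The labels name no sorting marker, genotype, age or sex, and whether the libraries of 1 clone are from different animals is not stated. In 6 of the 13 parent lines, more than 1 clone was used, so clones of a line share an origin.

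Macrophages are phagocytes that depend on signalling through the colony-stimulating factor 1 receptor and on the transcription factor PU.1, encoded by Spi1. They carry Fc receptors and integrins at the surface, digest what they take up with lysosomal enzymes, and in tissues are the main makers of C1q, the first component of the classical complement pathway. In pancreatic tumours they are usually among the most numerous immune cells.

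The libraries were of 2 kinds. Transcripts of heart muscle (the sum of Mb, Myl2, Myh6 and Myh7) were at most 0.235 CPM, that is, counts scaled to library size with TMM factors, in 20 libraries of 17 clones, which are called heart-free. In the other 19, called heart-bearing, the sum was 154 to 4814 CPM. Of the heart-bearing libraries 18 had tumour number 1 at the end of the title, against 1 of the heart-free ones, so kind and tumour number can hardly be told apart. Library totals were 7638130 to 103794674 counts, and 26866065 to 41683806 in the heart-free libraries, where the lowest count of any of the 34 genes was 9. Epithelial keratins, which mark the labelled cell type, were present throughout the heart-free libraries, with Krt8 at 1192 to 3619 CPM and Krt19 at 598 to 3085 CPM. The heart-free libraries are described first.

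Leukocyte transcripts were present in every heart-free library, and the sum over the 34 genes differed 15.1-fold from the lowest to the highest. This sum was 381 CPM in tumour 2 of clone yfp_6419c5 and 5746 CPM in tumour 2 of clone yfp_7160c5, with a median of 763 CPM over the 20 libraries. Cd14, which varied little, made up much of the low sums, with 211 of the 381 CPM in the yfp_6419c5 library. Most single genes ranged more widely than the sum, with a median highest over lowest ratio of 63.7. The sum over the C1q genes ranged 90.5-fold and was lowest in tumour 2 of yfp_6422c5, at 12.2 CPM. High sums were also found in tumour 4 of yfp_2838c3 at 4693 CPM, in yfp_6499c4 at 4571 CPM, in yfp_6555c3 at 3801 CPM, in yfp_6499c3 at 2776 CPM and in yfp_6620c1 at 2735 CPM. The remaining 14 libraries lay between 381 and 1032 CPM, so no library fell between 1032 and 2735 CPM. In such data, fewer cells of a type and less RNA per cell cannot be told apart. The sum over the 8 epithelial genes fixed as tumour cell markers ranged 3.01-fold over the same libraries, from 4469 to 13448 CPM.

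**Figure D1:**
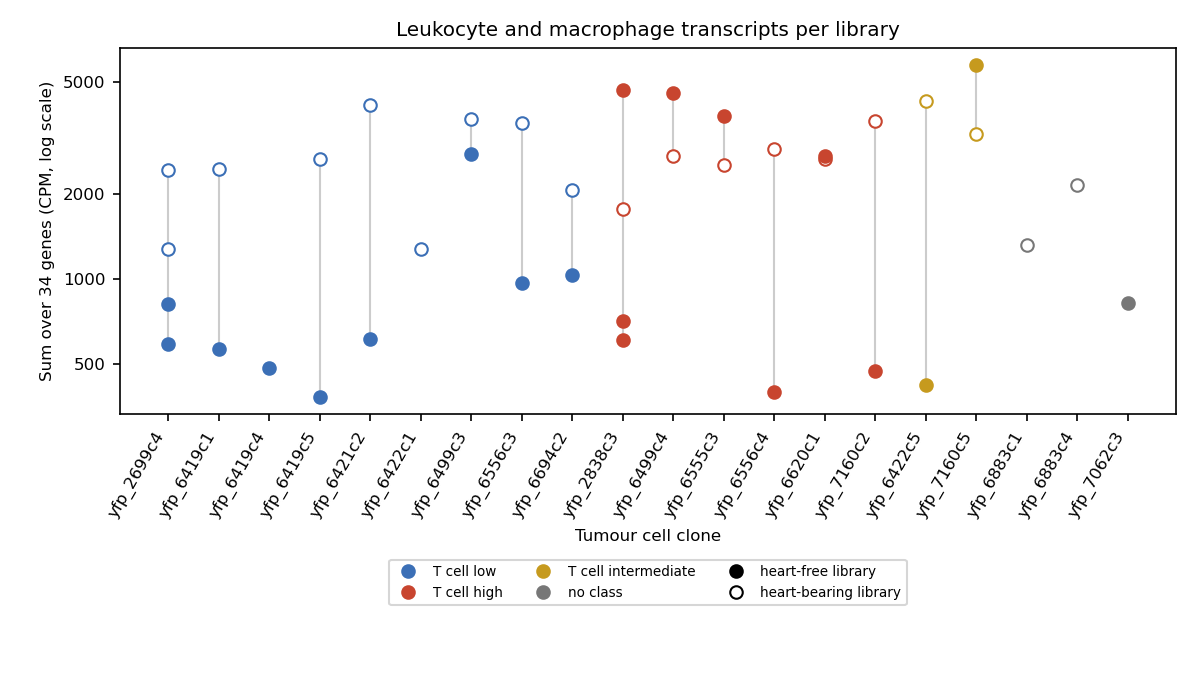
Sum over the 34 genes in CPM (log scale) for each of the 39 libraries, by clone, with filled points for heart-free and open points for heart-bearing libraries, and colours for the T cell class; lines join libraries of 1 clone. Heart-free points spread from 381 to 5746 CPM, and heart-bearing points from 1275 to 4271 CPM.

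Among the pan-leukocyte genes, Ptprc, which encodes the CD45 phosphatase of leukocytes, had a lowest, median and highest level of 1.90, 6.41 and 69.6 CPM over the 20 heart-free libraries. Tyrobp, the adaptor through which TREM2 and other myeloid receptors signal, was at 0.937, 4.41 and 46.7 CPM. Laptm5, a lysosomal membrane protein gene of blood cells, was at 3.41, 15.7 and 158 CPM. All of these were lowest in tumour 2 of yfp_6422c5 and highest in libraries with high sums. The other genes of the group were Fcer1g (signalling chain of Fc receptors), the cytoskeletal regulators Coro1a, Rac2 and Arhgdib, and the lymphoid and myeloid transcription factor gene Ikzf1, with highest over lowest ratios of 84.1, 34.1, 40.1, 32.3 and 103.5. Cd53, a tetraspanin gene, ranged 15.4-fold and Cytip, a cytohesin-binding protein gene, 23.1-fold.

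Receptors of macrophages varied as widely. Csf1r, the receptor for the growth factor on which most macrophages depend, had a lowest, median and highest level of 4.95, 23.9 and 270.9 CPM. Adgre1, which encodes the F4/80 antigen, was at 0.755, 6.74 and 97.5 CPM, a ratio of 129.2. Itgam, the CD11b integrin chain, was at 3.33, 11.9 and 120 CPM. The smallest of these ratios of highest to lowest was that of Itgam, 35.9. Trem2, a lipid-sensing receptor, ranged from 0.625 to 45.4 CPM with a median of 5.10 CPM, and Cx3cr1, the fractalkine receptor, from 0.899 to 83.7 CPM with a median of 2.28 CPM. The Fc receptor genes Fcgr1 and Fcgr3 spanned 86.5-fold and 56.1-fold, the integrin gene Itgax 80.3-fold, and Csf2rb, the shared chain of several cytokine receptors, 41.8-fold. Csf2rb and Fcgr3 have close paralogs, as do Lyz2, Ms4a6c and Ms4a7, and how reads shared with those were counted is not given in the sources used here.

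The 3 C1q genes lie side by side on the minus strand of chromosome 4 (GENCODE M21 on GRCm38), C1qb at chr4:136880129-136886187, C1qc at chr4:136889804-136893065 and C1qa at chr4:136895917-136898803, and moved as a block. C1qa had a lowest, median and highest level of 4.95, 45.3 and 469.9 CPM, C1qb of 3.75, 29.7 and 287.5 CPM, and C1qc of 3.46, 30.4 and 343.8 CPM. The log2 level of each was set against the mean log2 level of the other C1q genes, leaving out the gene itself. The SD of this log2 ratio was 0.107 to 0.112 over the 20 libraries, the smallest of the 34 genes. Genes outside the block were set against the mean of all 3 C1q genes. Per kilobase of annotated exon, the median level was 43.6 CPM for C1qa, 27.3 for C1qb and 15.7 for C1qc, against 0.350 for Ptprc.

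Lysosomal and secreted products followed. Lyz2, which encodes the lysozyme of myeloid cells (chr10:117277331-117282321), had a lowest, median and highest level of 17.9, 102.8 and 1781 CPM, the highest level of the 34 genes also per kilobase (1354 CPM). Ctss, the cysteine protease cathepsin S, was at 4.69, 37.1 and 525 CPM, and Mpeg1, a pore-forming protein gene, at 3.12, 21.1 and 301 CPM. Cd68, a lysosomal glycoprotein gene, spanned only 15.7-fold, from 3.75 to 58.9 CPM. Pf4, a chemokine gene of platelets and some macrophages, ranged from 0.781 to 55.8 CPM with a median of 6.22 CPM. Spi1 ranged from 1.07 to 46.0 CPM, Aif1, the actin-binding IBA1 gene, 74.5-fold, and the membrane protein genes Ms4a7 and Ms4a6c 137.7-fold and 81.3-fold.

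Because PU.1 is the factor on which the myeloid programme depends, the 250 bases before the RefSeq start of each gene (GRCm38.p6) were searched for the motif GAGGAAGT on both strands. Windows were found for 26 of the 34 genes, the others being Tyrobp, Rac2, Csf1r, Adgre1, C1qa, Cd14, Spi1 and Csf2rb. The motif was in 2 of the 26 (7.69%), C1qc and Pf4, and in 2.79% of 27025 genes with a window. Both matches are shown because they belong to genes of the 29 that move together, and the capitals mark the match, which reads as the reverse complement. The C1qc window is chr4:136892915-136893164 on the minus strand, in part inside the GENCODE gene, and the Pf4 window chr5:90772185-90772434 on the plus strand.
C1qc: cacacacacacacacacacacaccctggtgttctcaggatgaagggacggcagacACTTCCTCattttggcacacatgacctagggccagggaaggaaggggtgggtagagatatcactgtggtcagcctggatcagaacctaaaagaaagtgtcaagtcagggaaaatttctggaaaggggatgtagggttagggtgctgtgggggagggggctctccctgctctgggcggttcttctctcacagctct
Pf4: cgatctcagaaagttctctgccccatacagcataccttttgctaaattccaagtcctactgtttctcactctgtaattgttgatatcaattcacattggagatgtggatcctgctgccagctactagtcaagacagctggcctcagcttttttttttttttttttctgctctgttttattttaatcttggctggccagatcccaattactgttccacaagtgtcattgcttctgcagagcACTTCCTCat
The match begins 195 bases before the start of C1qc and 10 before that of Pf4. In the data C1qc spanned 99.3-fold and Pf4 71.4-fold over the heart-free libraries, and a match is a description of letters only.

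**Figure D2:**
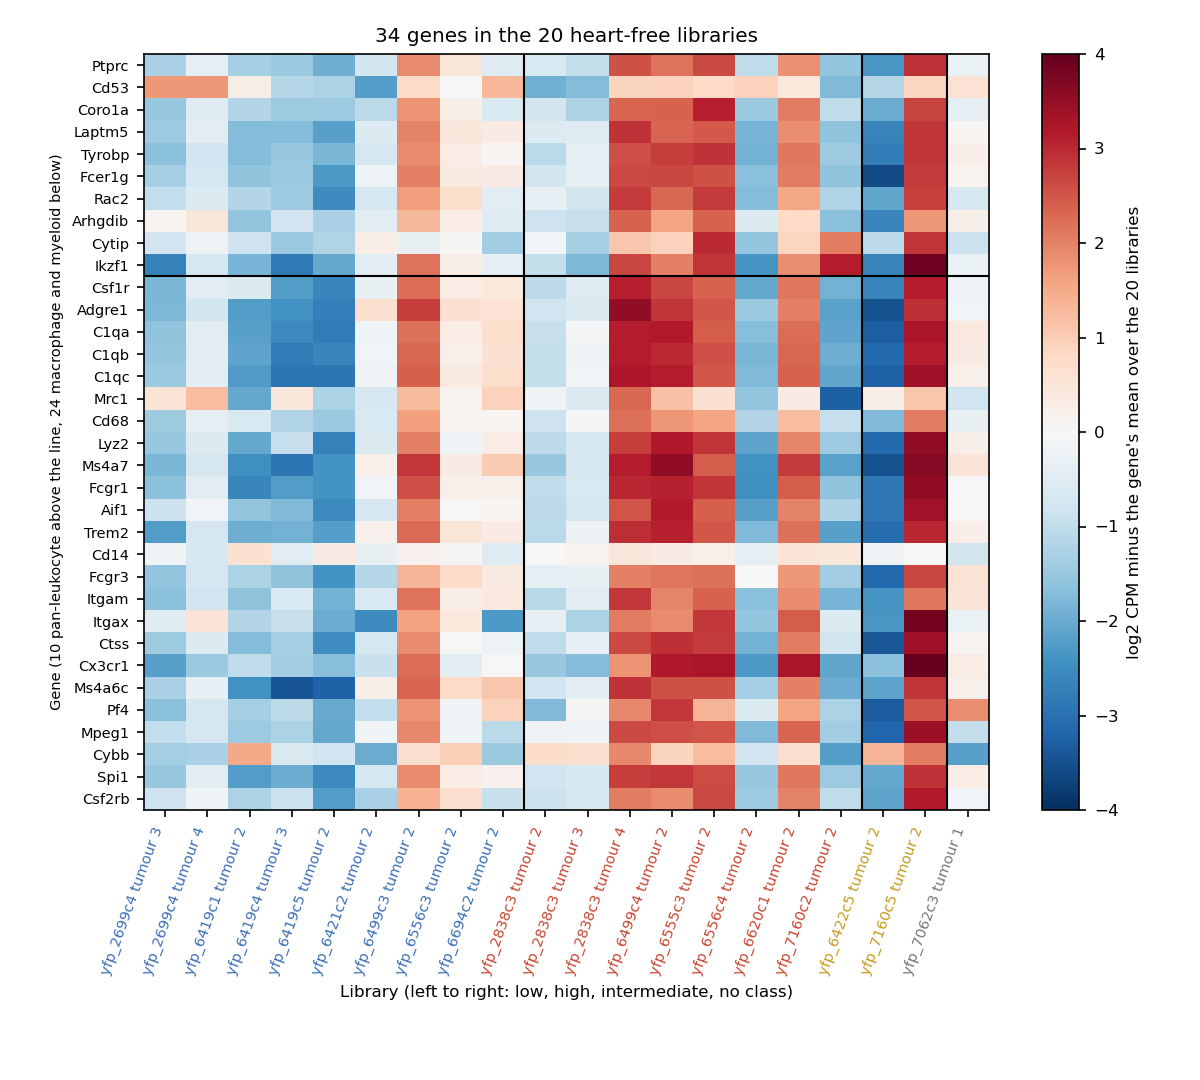
Colours give the log2 CPM of each of the 34 genes (rows) minus its mean over the 20 heart-free libraries (columns), with library names coloured by class and black lines between groups. Most rows share the same pattern of high and low libraries, while Cd14 is nearly flat and Cd53, Cybb, Mrc1 and Cytip follow patterns of their own.

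Most of the genes rose and fell together from library to library. Over the 20 heart-free libraries, which differ in depth and share the C1q-high tumours, Pearson's r between a gene's log2 CPM and the mean of the other 33 was at least 0.826 in 29 genes and reached 0.995 in Laptm5. A bound of 0.8 separated these 29 from the other 5 and was chosen after the values were seen. The 29 spanned 15.7-fold to 137.7-fold, with a median of 74.5-fold. The genes outside the group, at r from 0.283 to 0.678, were Cd14, Cd53, Cybb, Mrc1 and Cytip.

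Cd14, the co-receptor for bacterial lipopolysaccharide, followed the others least, at r = 0.283. It had a lowest, median and highest level of 101.8, 172.7 and 260.0 CPM, a ratio of 2.55, and its highest library was yfp_6419c1 tumour 2, where C1qa was at 10.8 CPM. Per kilobase of exon its median of 99.7 CPM was the highest of the 34 genes. Cd53 was at 88.5 and 87.7 CPM in tumours 3 and 4 of clone yfp_2699c4, where C1qa was at 16.1 and 36.7 CPM, and at 48.3 CPM in yfp_7160c5, where C1qa was highest. The highest Cd53 levels thus lay in libraries whose sums over the 34 genes were 590 and 815 CPM.

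Cybb, the membrane subunit of the phagocyte NADPH oxidase (chromosome X), was at 81.6 CPM in yfp_6419c1 tumour 2 and at 73.0 CPM in yfp_6422c5 tumour 2, both with low C1q, and at 6.15 CPM in yfp_7160c2 tumour 2. Its highest level, 117 CPM, was in yfp_7160c5, so libraries with high and with low C1q shared the upper end. Mrc1, the macrophage mannose receptor, was at 111 CPM in yfp_6422c5 tumour 2 and 127 CPM in yfp_6419c4 tumour 3, whose C1qa levels of 4.95 and 8.42 CPM were among the lowest. It was lowest in yfp_7160c2 tumour 2, at 9.55 CPM, and highest in yfp_2838c3 tumour 4, at 451.5 CPM. In that yfp_7160c2 library Cytip stood at 5.74 CPM and Ikzf1 at 17.2 CPM, although Ptprc was at 3.18 CPM and C1qa at 11.3 CPM. The libraries with more Cytip were yfp_6555c3 and yfp_7160c5, at 11.2 and 10.2 CPM.

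**Figure D3:**
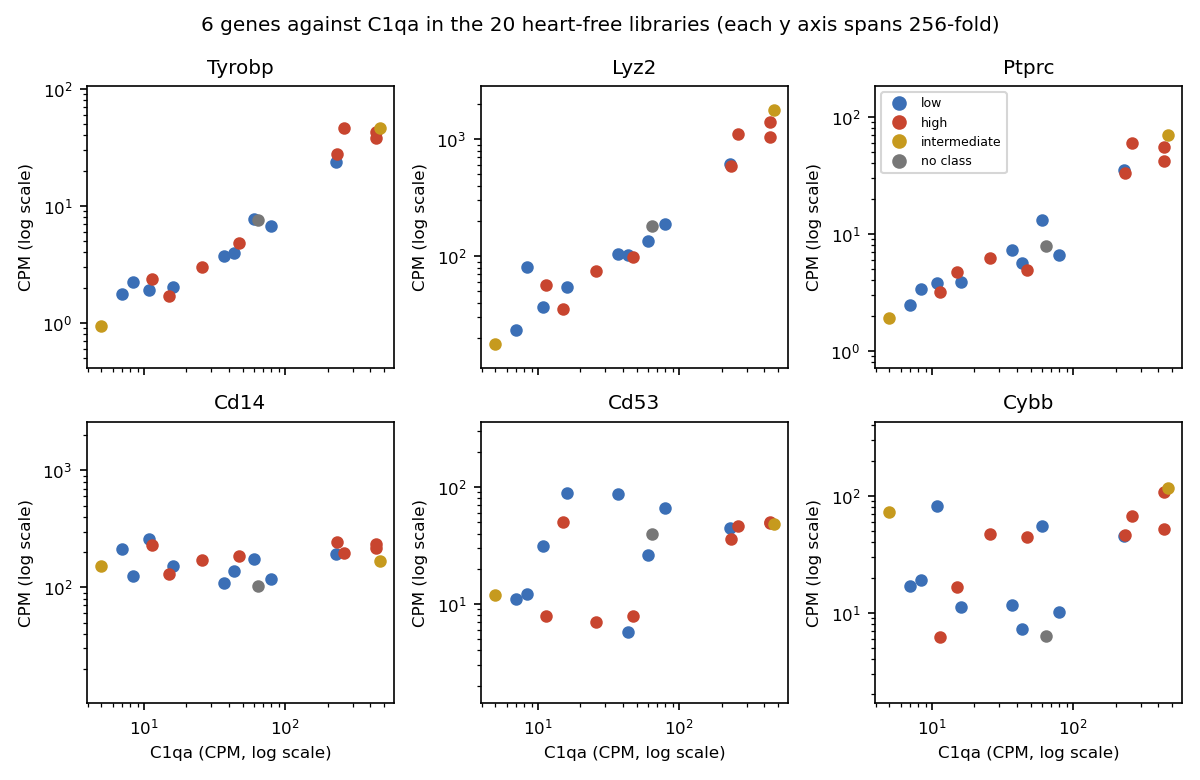
CPM of 6 genes (y axes, log scale, all spanning the same fold) against CPM of C1qa (x axes, log scale) in the 20 heart-free libraries, coloured by class. Tyrobp, Lyz2 and Ptprc climb with C1qa, while Cd14 stays between 101.8 and 260.0 CPM and Cd53 and Cybb are high in some libraries with little C1qa.

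How far tumours of 1 clone differ could be read in 2 clones. Clone yfp_2838c3, labelled T cell high, had 3 heart-free tumours, and the 34 genes were much higher in tumour 4 than in tumours 2 and 3. C1qa was at 25.6, 46.9 and 436.5 CPM in tumours 2, 3 and 4. Ptprc was at 6.17, 4.87 and 55.2 CPM, and Csf1r at 15.01, 21.7 and 268 CPM. For each of these genes tumour 4 stood near the top of the 20 libraries and the other two near or below the median.

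All 34 genes were higher in tumour 4 than the mean of tumours 2 and 3, 33 of them more than 2-fold and 31 more than 5-fold, with a median ratio of 10.03. Adgre1 showed the greatest ratio at 18.5, from 4.88 and 5.68 to 97.5 CPM, and Cd14 the smallest at 1.30. The other 2 members under 5-fold were Cytip at 3.19 and Cybb at 2.38. Tumours 2 and 3 were near each other, with a median ratio of 1.16 (tumour 3 over tumour 2), 23 genes higher and 11 lower, and only Pf4 more than 2-fold apart on the higher side, at 3.54.

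Other lists moved in the same tumour. The sum over 7 MHC class II genes was 132, 96.99 and 881 CPM in tumours 2, 3 and 4, and over 12 T cell genes 4.08, 2.39 and 11.03 CPM. The epithelial sum was 7583, 9883 and 5578 CPM, lowest in tumour 4. Fibroblast genes were at 538, 100.3 and 494 CPM and endothelial genes at 23.2, 4.07 and 34.3 CPM, so tumour 4 lay between the other two in the first and above both in the second. The heart sum was 0 in all 3 tumours. Liver genes summed to 11.4, 15.8 and 35.1 CPM, highest in tumour 4, against a median of 0.656 CPM over the heart-free libraries. Totals of 26866065, 41683806 and 36594266 counts put tumour 4 between the other tumours in depth. The part of these differences in the leukocyte values was not tested.

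Clone yfp_2699c4, labelled T cell low, differed less between its 2 heart-free tumours. C1qa was at 16.1 CPM in tumour 3 and 36.7 CPM in tumour 4, Csf1r at 8.73 and 22.5 CPM, Lyz2 at 54.0 and 103.6 CPM and Ikzf1 at 0.299 and 1.20 CPM. Of the 34 genes 32 were higher in tumour 4, with a median ratio of 1.90 and 14 genes over 2-fold. Ikzf1 showed the greatest ratio at 4.01 and Cd14 the smallest at 0.703. The sum over fibroblast genes moved with them, from 285 to 1075 CPM, and its part was not tested.

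**Figure D4:**
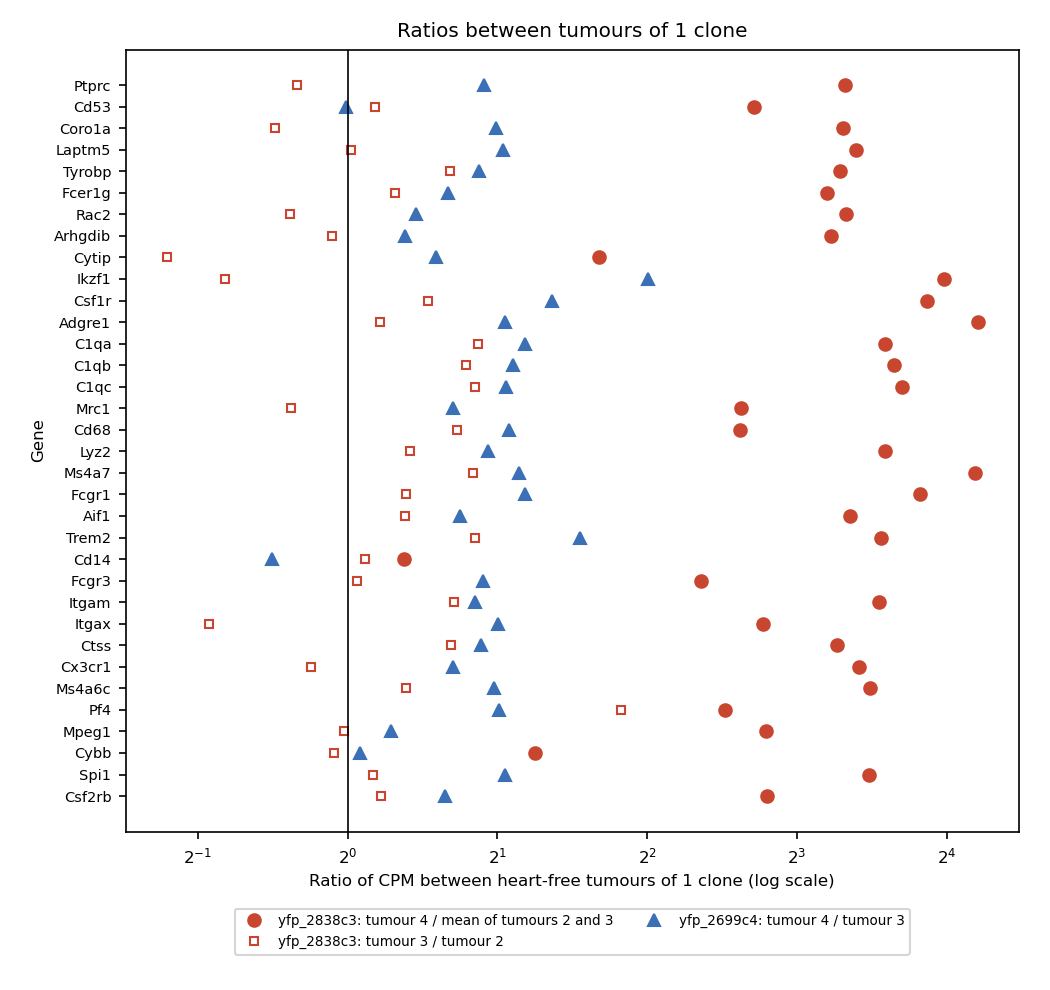
Ratios of CPM between heart-free tumours of 1 clone (log scale) for each of the 34 genes: tumour 4 over the mean of tumours 2 and 3 in yfp_2838c3 (filled circles), tumour 3 over tumour 2 in yfp_2838c3 (open squares), and tumour 4 over tumour 3 in yfp_2699c4 (triangles). The circles lie from 1.30 to 18.5, the squares from 0.433 to 3.54 and the triangles from 0.703 to 4.01.

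Between tumours of 1 clone the 34 genes spread more than most genes did. Pooled over both clones, the SD of log2 CPM within a clone had a median of 1.62 over the 34 genes, against 0.250 over 14289 genes with enough counts. By clone the medians were 1.93 against 0.271 in yfp_2838c3 (3 libraries) and 0.651 against 0.123 in yfp_2699c4 (2 libraries). Between the 17 clones the median SD was 1.89 for the 34 genes and 0.427 for all. Only 2 of these clones had more than 1 heart-free library, so the SD between clones also holds the spread between tumours. Of the 34 genes, 30 had a smaller SD within than between clones, against 1 of the 34 when the heart-bearing libraries were included. This was not counted over all genes, and a smaller SD within clones does not by itself show that clones differ. Cybb was the gene with the widest gap, at 0.591 within and 1.42 between clones, and Itgam, Cd68, Arhgdib and Cd53 were the 4 with more spread within.

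The F-test of edgeR, set on the 20 heart-free libraries with 3 residual degrees of freedom, asked whether clones differed by more than tumours of 1 clone. It called 0 of the 34 genes at an adjusted p under 0.05, against 7.99% of the 18704 genes tested. At an unadjusted p under 0.05 there were 4 of 34, namely Cybb, Cytip, Mpeg1 and Cx3cr1, against 35.3% of all genes. Cybb came closest (edgeR adjusted p = 0.0525), and the highest adjusted p was 0.457, for Arhgdib. With tumour 4 of yfp_2838c3 left out, 33 of the 34 were called, all but Cd14, against 19.9% of genes, with adjusted p from 0.00289 for Mpeg1 to 0.0479 for Pf4. That tumour gave most of the spread within clones against which the test measures. With each of the other 4 libraries of the 2 clones with several heart-free libraries left out, 0 were called, while over all genes 129 to 517 were. Every fit with a library left out had fewer residual degrees of freedom. In simulated counts, 20.3% of the calls of the full test were false. With no filter on low counts edgeR called 1, Cybb, against 10.4% of genes. The likelihood ratio test of DESeq2 called 32 of the 34 with every library in, all but Mrc1 and Itgam, against 52.2% of the genes it tested. With all libraries in the edgeR fit and the kind of library as a covariate, 0 of the 34 were called, against 5289 of 20644 genes. The smallest edgeR adjusted p of the 34 was 0.0799 there, and 2 were at an unadjusted p under 0.05, against 43.4% of all genes. Within the heart-free libraries, whether the clones differ in these genes turned on 1 tumour and on the tool.

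The question the series poses, what differs between T cell high and T cell low tumours, was put to these genes in the heart-free libraries with counts summed per clone. Levels averaged higher in the 6 high than in the 8 low clones for 33 of the 34 genes, but the classes overlapped in all 34 and no gene passed. The overlap was not counted over all genes. The edgeR log2 difference was positive for 33 of the 34, against 49.6% of 15635 genes. Most of the 34 moved together, so they are not separate counts. In 8 high libraries C1qa had a lowest, median and highest level of 11.3, 139 and 440.8 CPM, and in 9 low libraries 7.03, 36.7 and 228 CPM. Ptprc was at 3.18, 19.8 and 59.3 CPM in high and at 2.44, 5.67 and 35.0 CPM in low libraries. In each class some libraries were near the bottom of the whole range: yfp_6556c4 and yfp_7160c2 among the high clones had C1qa at 15.1 and 11.3 CPM. Among the low clones yfp_6499c3, at 228 CPM, stood above 3 of the 6 high clones.

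Over clones, C1qa averaged 191 ± 163 CPM in high and 58.1 ± 73.7 CPM in low (SD, n = 6 and 8), a log2 difference of 1.69 ± 0.86 (SE, edgeR adjusted p = 0.404). Lyz2 averaged 606 ± 556 against 158 ± 194 CPM (1.91 ± 0.81, edgeR adjusted p = 0.344), and Ptprc 27.8 ± 21.9 against 9.44 ± 10.8 CPM (1.53 ± 0.69, edgeR adjusted p = 0.359). For these genes the SD was above the mean in the low class and below it in the high class. Mrc1 (120 ± 85.4 against 115 ± 72.4 CPM, log2 difference 0.03 ± 0.61), Cd53 (35.6 ± 17.3 against 35.7 ± 29.2 CPM, -0.02 ± 0.56) and Cd14 (203 ± 40.8 against 169 ± 49.8 CPM, 0.24 ± 0.19) showed the smallest differences. The sign of the Mrc1 and Cd53 differences changed when single clones were left out. The median log2 difference was 1.60 for the 10 pan-leukocyte and 1.62 for the 24 macrophage and myeloid genes, against -0.002 for all genes tested.

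Of the 34 genes, 0 were called by edgeR, against 0% of 15635 genes, and adjusted p ran from 0.204 for Cytip to 0.993 for Cd53. At an unadjusted p under 0.05 there were 15 of 34, against 13.4% of all genes. DESeq2 called 1 of the 34, Cytip, against 2.17% of its genes. Cytip averaged 4.04 ± 3.92 CPM in high and 0.965 ± 0.438 CPM in low clones, 4 of 6 high clones lay above every low clone, the highest of which was at 1.68 CPM, and yfp_6556c4 lay below every low clone at 0.484 CPM. Its log2 difference was 2.04 ± 0.54 with edgeR (adjusted p = 0.204) and 2.03 with DESeq2 (adjusted p = 0.0181).

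How many of the genes reached an unadjusted p under 0.05 in edgeR also depended on single clones. Without the low clone yfp_6499c3 there were 30 of 34, against 13.8% of all genes, with a median log2 difference of 2.23. Without the high clone yfp_6555c3 there were 2 of 34, against 9.09% of all genes, with a median of 1.35. Without yfp_6556c4 there were 25 (16.5% of all genes), without yfp_7160c2 24 (11.4%), without yfp_6499c4 5 (9.98%) and without yfp_6620c1 8 (11.6%). Without each of yfp_2699c4, yfp_6419c1, yfp_6419c4 and yfp_6421c2 there were 9, against 10.6% to 14.1% of all genes. Of the 34 genes, 0 were called with any 1 clone left out. Over all genes, 37 of 15807 were called without yfp_2838c3, 1 of 15566 without yfp_6694c2 and 0 without each other clone.

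**Figure D5:**
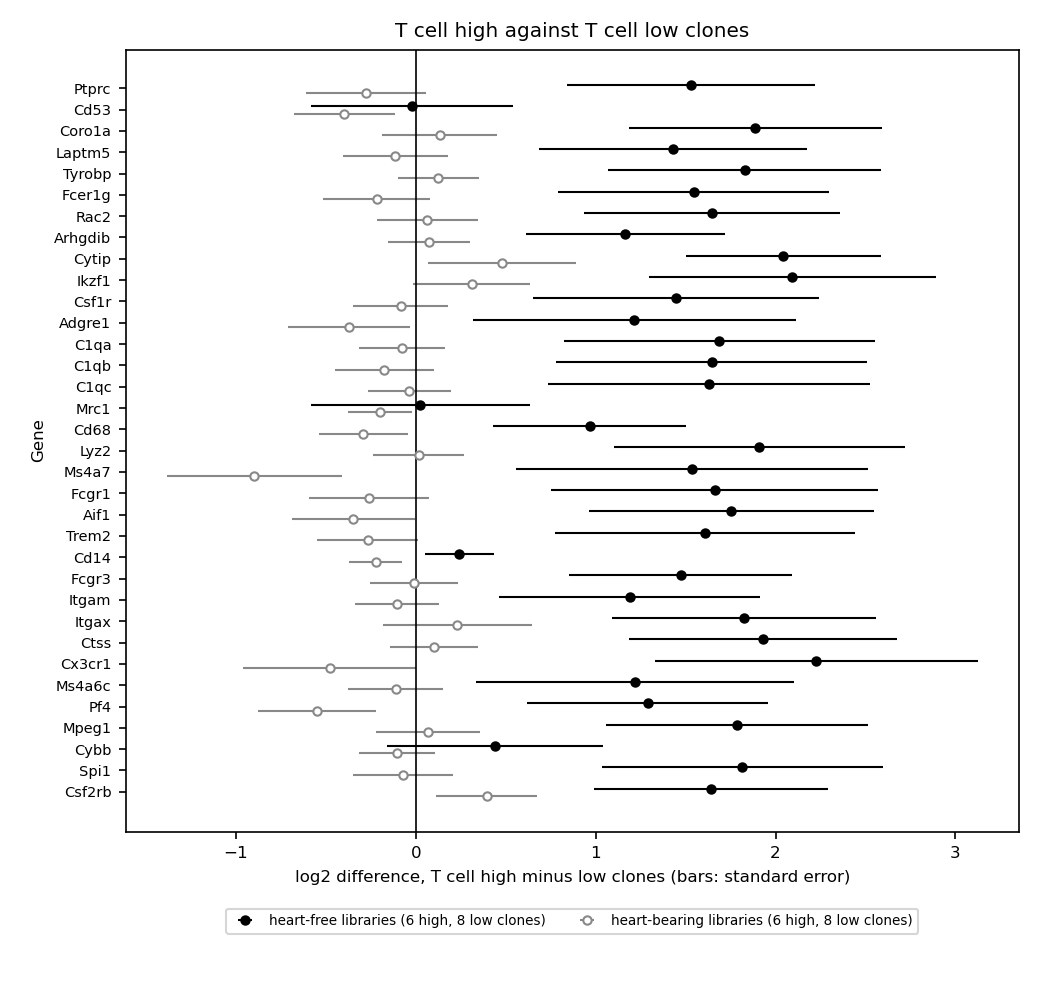
Log2 difference between T cell high and low clones for each of the 34 genes, with the standard error of the edgeR fit as bars, in heart-free (black) and heart-bearing libraries (grey, open). In the heart-free libraries 33 of the 34 differences are above 0, and in the heart-bearing ones 11.

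Genes that are no members but belong to the same cells did likewise. Of 20 further leukocyte genes, all tested, 0 passed and 19 had a positive log2 difference, with a median of 1.38, and of 23 further macrophage genes 19 were tested, 0 passed and 17 were positive, with a median of 1.29. All 7 MHC class II genes were positive without passing, with a median of 1.95. The T cell list had 4 of 12 genes tested, all positive, a median of 0.60 and a sum of 1.17 to 7.21 CPM in low and 1.995 to 11.03 CPM in high libraries.

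Markers of other cell types differed in both directions, and none passed. Positive log2 differences were found for 7 of 8 fibroblast genes (median 1.04), 7 of 7 endothelial genes (1.47), 5 of 5 tested neutrophil genes (1.66) and 8 of 8 epithelial genes (0.41). The same held for 2 of 2 tested B cell genes (1.26), 4 of 5 tested dendritic cell genes (0.40), 4 of 5 red blood cell genes (0.45) and 2 of 2 tested liver macrophage genes (0.52). Medians were negative for the natural killer and cytotoxic list (-1.46, 1 gene tested), the mast cell list (-0.78, 2 tested) and the liver list (-2.44, 1 tested). Fibroblast sums were 233 to 6023 CPM in low and 100.3 to 17697 CPM in high libraries, the last in yfp_6555c3, which also had the highest Ptprc and Cytip of the high clones. Of the liver macrophage list the iron exporter gene Slc40a1 was the highest, at 9.29 to 190 CPM, with Vsig4 at 0 to 5.41 CPM and Marco at 0 to 1.005 CPM. B cell, natural killer and cytotoxic, dendritic and mast cell sums were at most 17.1, 10.9, 17.1 and 64.0 CPM. The part of these other cells in the leukocyte values was not tested.

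With all libraries in the fit the difference between classes was smaller. Over 6 high and 9 low clones 0 of the 34 genes were called by edgeR, against 0% of 18551 genes, with 1 at an unadjusted p under 0.05 (Ctss, log2 difference 0.83 ± 0.37, edgeR adjusted p = 0.406), against 11.7% of all genes, and a median log2 difference of 0.55. DESeq2 called 0 of the 34, against 0.698% of its genes. In the heart-bearing libraries alone, over 6 high and 8 low clones, 0 of the 34 were called, against 0% of 17313 genes, and 0 were at an unadjusted p under 0.05, against 10.7% of all genes. There the median was -0.10 and 11 of the 34 differences were positive, against 46.6% of all genes, with C1qa at -0.078 ± 0.24 and Ptprc at -0.28 ± 0.33. That the heart-free and heart-bearing differences are unlike was not tested.

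The heart-bearing libraries resembled each other in these genes more than their clones did. In the 15 clones with both kinds, the sum over the 34 genes, averaged per clone where a clone had several libraries of a kind, was 381 to 5746 CPM for heart-free libraries (SD of log2 1.39) and 1768 to 4271 CPM for heart-bearing ones (SD of log2 0.396, a range of 2.42-fold). The lowest single heart-bearing library of these clones was tumour 1 of yfp_2699c4, at 1284 CPM. In 10 of these clones the heart-bearing library had more, as in yfp_6422c5 with C1qa at 268 against 4.95 CPM and yfp_6419c5 with 145 against 7.03 CPM. In the other 5, which were yfp_2838c3, yfp_6499c4, yfp_6555c3, yfp_6620c1 and yfp_7160c5, it had less, as in yfp_7160c5 with 172 against 469.9 CPM. For yfp_2838c3 this rested on tumour 4: the heart-bearing library, at 1768 CPM, lay below tumour 4 at 4693 CPM but above tumours 2 and 3 at 606 and 711 CPM. By these averages, the 5 were among the 6 clones with the highest heart-free sums, and the exception was yfp_6499c3, at 2776 CPM in its heart-free and 3702 CPM in its heart-bearing library.

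Of the 34 genes, 33 had a narrower range in the heart-bearing libraries, with a median highest over lowest ratio of 5.11 against 63.7, and Cd14 was the exception at 3.66 against 2.55. Narrower ranges were not counted over all genes, and most of the 34 moved together, so they are not separate counts. In the 7 libraries with a heart sum above 4000 CPM, from 7 clones, the leukocyte sum was 2437 to 2898 CPM. Itgam was at 35.3 to 181 CPM in the heart-bearing libraries, Trem2 at 6.68 to 29.7 CPM and Tyrobp at 16.4 to 54.5 CPM. Markers of other tissues were high in the same libraries, with liver genes summing to 488 to 15549 CPM against at most 248 CPM in the heart-free ones (yfp_6419c1 tumour 2), and endothelial genes to 29.95 to 274.7 CPM against 4.07 to 202 CPM. Their part in the leukocyte values was not tested.

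In 3 parent lines, sister clones of different class had 1 heart-free tumour 2 each. The sum over the 34 genes in yfp_6499c4 (high) was 1.65 times that in yfp_6499c3 (low), in yfp_6556c4 (high) 0.411 times that in yfp_6556c3 (low), and in yfp_7160c5 (intermediate) 12.2 times that in yfp_7160c2 (high). The median of the ratios of the single genes was 1.52, 0.257 and 20.6 in the same order. With 1 library a side there is no replicate check.

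Among the genes outside the 34 whose log2 CPM was most like the mean of the 34 over the 20 heart-free libraries, out of 10472 candidates, were Fermt3, Il10ra, Nckap1l, KCTD12, Vav1, Irf5 and Cd84, at Pearson's r from 0.989 to 0.995. All of these values come from the same libraries, 6 of which had high sums over the 34 genes. Fermt3, a gene for an integrin activator of blood cells, ranged from 1.48 to 42.6 CPM.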

How the data were processed

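RNA sequencing counts of sorted tumour cells were analysed in 39 libraries. The deposited values are raw counts, whole numbers per gene, which the authors made with STAR and featureCounts on mm10, per the submitters' processing notes. No source used here gives the versions, annotation or strand setting, so reads of overlapping or antisense genes may be counted for a neighbour. Totals were 7638130 to 103794674 counts, and where counts are low, counting error limits precision. Each class was read from the labels, and the clone and tumour number from the titles.

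The 34 genes were matched by symbol, and Adgre1 by gene identifier. The members, the lists and the motif were chosen with earlier results of these data known. All 34 are described, 10 of them with ranges over the heart-free libraries: Ptprc, Tyrobp, Csf1r, Adgre1, C1qa, Lyz2, Mrc1, Itgam, Trem2 and Pf4, and any member called. From other lists the genes with the highest mean CPM could be named, and outside the lists the 10 genes most like the mean of the members with a mean of at least 5 CPM, some of which are not reported here. A heart sum under 10 CPM made a library heart-free. Levels are CPM with TMM factors over 39 libraries, log2 values have a prior count of 2, and exon lengths are from GENCODE M21.

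Counts were summed per clone, filtered with filterByExpr, and tested with edgeR 4.0.16 (quasi-likelihood, R 4.3.3) with Benjamini-Hochberg adjustment over all genes tested and a threshold of 0.05. Clone differences were tested per library. DESeq2 1.42.0 was an alternative, besides other scaling, no filter, libraries as replicates, a tumour number block, other bounds and left-out clones or libraries. The p-values measure only the spread between these samples, which may be technical, and clones of a line may not be independent.

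Each fit was tested on simulated counts. Changes were planted in genes drawn at random from those averaging at least 5 CPM, each varying on its own. The 34 genes spread more than most genes and moved together, so the shares found need not hold for them. For the heart-free clones (15635 genes), a planted change of log2 1 was found in 44% of cases and one of log2 2 in 88%, and 7.69% of calls were false. For all libraries (18551 genes) the shares were 70%, 93% and 4.12%. For the clone test (18704 genes) they were 10%, 84% and 20.3%, so calls of that test are less certain than its threshold says.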

Additional observations from a re-analysis of the deposited data

Results flagged for a closer look

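In each of 102 groups (each gene in 6 heart-free high clones, 8 heart-free low clones and 4 intermediate libraries), the library or clone farthest from the others was tested for standing apart on the log2 scale, and 20 did. Chance gives about 1 in 20 groups, but the groups are not independent, since 29 of the 34 genes rose and fell together over the heart-free libraries. The count of 20 therefore cannot be set against that share. Of the 20, 17 were the same library, tumour 2 of yfp_6422c5, the lowest of the 4 intermediate libraries. It was at 1.90 CPM for Ptprc, 1.93 for Coro1a, 3.41 for Laptm5, 0.937 for Tyrobp, 0.521 for Fcer1g, 0.625 for Rac2 and 1.12 for Arhgdib. Among macrophage genes it was at 4.95 CPM for Csf1r, 0.755 for Adgre1, 3.75 for Cd68, 17.9 for Lyz2, 2.004 for Fcgr3, 3.33 for Itgam, 4.69 for Ctss, 3.12 for Mpeg1, 1.51 for Spi1 and 1.64 for Csf2rb. The nearest of the other 3 libraries was at 52.0 CPM for Ptprc and 873 CPM for Lyz2. The other 3 libraries are the 2 heart-bearing ones and the heart-free tumour of yfp_7160c5, the library with the highest sum.

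The high clone yfp_6556c4 stood below the other 5 high clones at 0.380 CPM for Ikzf1, with the next at 4.95 CPM, and at 129 CPM for Cd14, with the next at 195 CPM. The low clone yfp_6499c3 stood above the other 7 low clones at 21.0 CPM for Cx3cr1, with the next at 4.51 CPM.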

How the results depend on the processing

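The count of the 34 genes called between high and low heart-free clones was 0 in edgeR with other scaling, no filter, libraries as replicates, other heart bounds (1 or 100 CPM gave the same libraries) and each clone left out, and 1 with DESeq2. With the tumour number as a replicate block it was 0 as well, in heart-free and in all libraries. Tumour numbers are only names, since no label says that they mark shared animals. Over these alternatives 735 of 748 values for single genes kept direction and call. Sign changes were those of Mrc1, at -0.091 with the replicate block and from -0.21 to 0.27 with clones left out in turn, and of Cd53, from -0.18 to 0.32. Restricting the fit over all libraries to heart-bearing ones turned C1qa to -0.078, Ptprc to -0.28 and the median of the genes to -0.10. With all libraries as replicates, 0 of the 34 were at an unadjusted p under 0.05 (13.2% of all genes), and 12 with the kind of library as a covariate (21.8% of all genes, of which 163 were called), with 0 of the 34 called in either.

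For differences among clones the count of 0 became 1 without the filter (Cybb), 32 with DESeq2 and 0 to 33 with libraries left out. It stayed 0 with all libraries and the kind of library as a covariate. The median SD between clones of 1.89 became 1.90 with a prior count of 0.5, 1.89 with totals and 1.10 with all libraries. With all libraries the median SD within a clone was 1.94, so that 1 of the 34 genes, in place of 30, had a smaller SD within than between clones; with totals it was 28. The ratio of sums of 15.1 became 16.5 with totals and 15.05 over the 32 genes averaging 5 CPM or more, and has no prior count to change. The 3 residual degrees of freedom of the clone test come from 2 clones.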

Other observations

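The heart-free library of a clone with no class, yfp_7062c3 tumour 1, had a sum over the 34 genes of 823 CPM, with C1qa at 64.2 CPM, Pf4 at 28.6 CPM and the lowest Cd14 of the 20 heart-free libraries, 101.8 CPM. The other clones with no class, yfp_6883c1 and yfp_6883c4, had only heart-bearing libraries. Apoe, a lipid carrier gene that macrophages also express, was the highest of the further macrophage genes and ranged from 101.6 to 5383 CPM over the heart-free libraries. Arg1, which encodes the arginine-degrading enzyme arginase, ranged from 4.71 to 199.7 CPM.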
